A study of Homo sapiens with 6 samples.

Results

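The genes described are 10 that encode the MYC, MAX and MXD network of transcription factors, read by symbol in an RNA-seq table of 16376 genes from HOS cells: MYC, MYCN, MYCL, MAX, MXD1, MXD3, MXD4, MXI1, MNT and MLX. All 10 had a row, and 8 averaged 1 FPKM or more and entered the tests, while MYCN and MYCL lay under that level. HOS is an established line of human osteosarcoma, labelled wild type. One group of 3 libraries was from cells exposed to Agrimol B, a plant phloroglucinol, for 24 h and the labels state no dose. The other 3 were control cells with no treatment listed, and no solvent is named. The labels do not say that replicates were separate cultures, so every p-value measures the difference against a spread that may be technical.

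MYC, MYCN and MYCL are basic helix-loop-helix leucine zipper proteins that bind DNA only as partners of MAX, mostly at the E-box CACGTG, and raise transcription of genes for ribosome assembly, nucleotide synthesis and cell growth. MXD1, MXD3, MXD4 and MXI1 (also called MXD2), with the related MNT and MGA, compete for MAX and bring corepressors such as SIN3 to the same sites. MLX is a MAX-like partner for the glucose-responsive factors MLXIP (MondoA) and MLXIPL (ChREBP), and also pairs with MXD1, MXD4 and MNT. MYC is amplified or highly expressed in many osteosarcomas, and MXD1 is commonly raised when cells stop dividing and differentiate.

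After Agrimol B, MAX, MXD1 and MNT rose, MXD3 fell, and the differences of MYC, MXD4, MXI1 and MLX did not pass the test. The 4 called genes make up 50.0% of the 8 tested, beside 52.0% of all 12143 tested genes that passed the same threshold (adjusted p under 0.05, limma). The background was 30.6% higher and 21.4% lower, so the share of calls in the network was close to that of the table. With median-ratio scaling 25.3% of all genes were higher and 26.1% lower, with quantile normalization 25.5% and 25.4%, and the network held 3 higher and 1 lower under both. The median log2 difference was 0.20 over the 8 genes and 0.07 over all tested genes. Differences are on the log2(FPKM + 1) scale, which understates changes of low genes, and folds are ratios of mean FPKM (fragments scaled to transcript length and library size). In RNA from whole cultures, fewer expressing cells and less RNA per cell cannot be told apart.

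**Figure D1:**
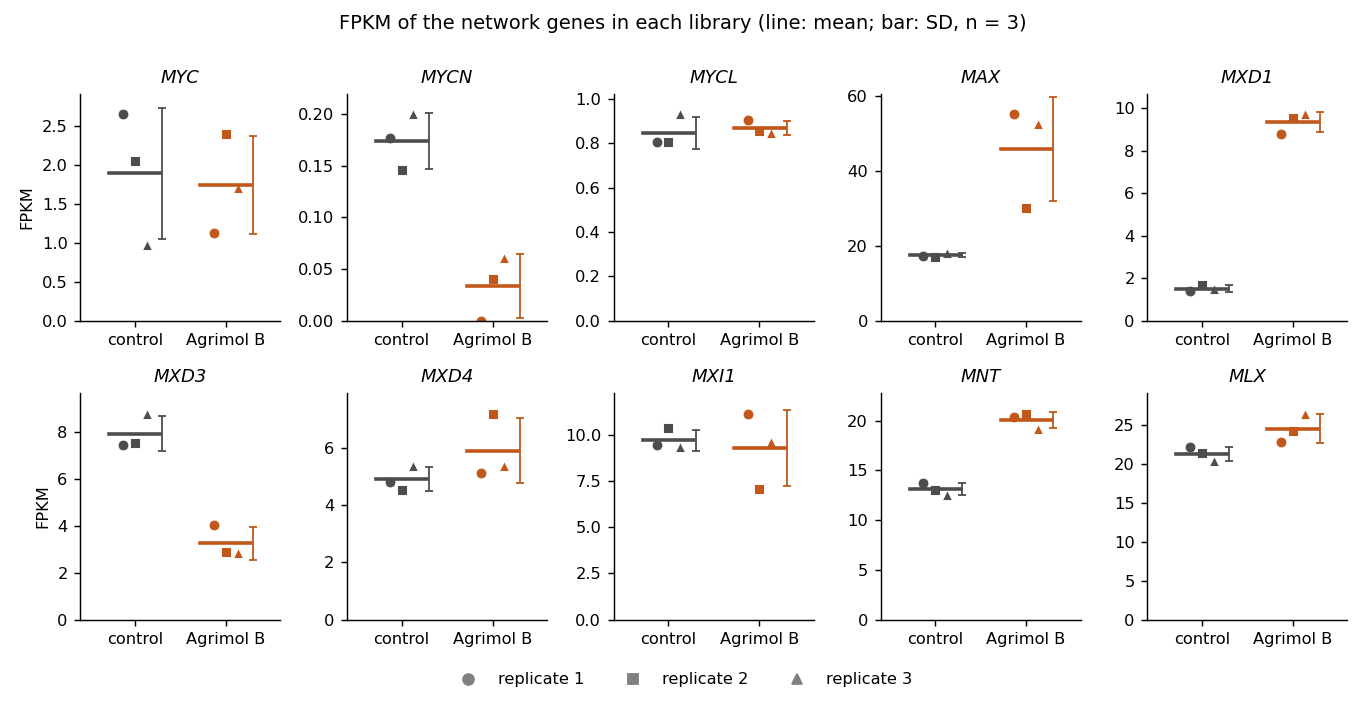
FPKM of the 10 network genes (vertical axes start at 0 and differ between panels) in the 3 control and 3 Agrimol B libraries; points are libraries, lines are means and bars are SD. MAX, MXD1 and MNT are higher and MXD3 is lower in every Agrimol B library, while the MYC values of the groups interleave.

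The libraries held 11993 to 12134 genes at 1 FPKM or more, with totals of 352990 to 359537 FPKM. The number of reads is unknown, and no counting error can be attached to single values. Of 8 osteosarcoma and mesenchymal markers all were tested, with summed levels of 3098 to 3484 FPKM in the controls and 2294 to 2524 FPKM after Agrimol B. Of these, 7 fell (87.5%) and 0 rose, beside 21.4% lower and 30.6% higher among all tested genes. The falls were led by the collagen chain COL1A2 (log2 difference -1.42), the alkaline phosphatase ALPL (-1.02) and the matrix protein SPARC (-0.86). Of 5 blood cell markers 2 had a row, and of 5 endothelial markers, with summed levels of 0.839 to 1.49 FPKM in the controls and 1.86 to 2.38 FPKM after Agrimol B, 1 was tested. The leukocyte marker PTPRC was listed at 0 in 5 libraries and the endothelial markers other than TIE1 were too low to be tested. Of those, VWF read 0.314 ± 0.0738 FPKM in the controls and 0.0374 ± 0.00863 FPKM after Agrimol B, CDH5 0.264 ± 0.181 and 0.0257 ± 0.0216 FPKM, and KDR 0.0594 ± 0.00669 and 0.267 ± 0.0147 FPKM. PECAM1 was at most 0.0391 FPKM, with lower values after Agrimol B. The monocyte marker CD14 fell from 1.44 ± 0.329 to 0.588 ± 0.190 FPKM, and the endothelial receptor gene TIE1 rose from 0.508 ± 0.191 to 1.80 ± 0.262 FPKM (SD, n = 3 per group, as throughout). Each reached the mean of 1 FPKM needed for testing only through its higher group, so these 2 values are a description only. Of 5 epithelial markers 3 were tested, and 0 rose or fell past the threshold. EPCAM read 13.0 to 14.3 FPKM in the controls and 12.8 to 14.7 FPKM after Agrimol B (log2 difference 0.02, adjusted p = 0.805). Summed epithelial markers, EPCAM included, were 14.0 to 16.0 FPKM in the controls and 13.2 to 32.6 FPKM after Agrimol B. The upper value came from Agrimol B replicate 3, in which the basal keratins KRT5 and KRT14 stood at 10.4 and 5.87 FPKM. Without that library the same 4 network genes were called, and MXD1 had a log2 difference of 2.02. The part of the mesenchymal, blood and endothelial marker changes in the results was not tested.

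MAX is the obligate partner of the MYC and MXD proteins. It lies on chromosome 14, 65006174 to 65102695, minus strand (GRCh38). Its FPKM was 17.3, 17.1 and 18.1 in control replicates 1 to 3 and 55.2, 30.1 and 52.5 in Agrimol B replicates 1 to 3. The groups did not overlap, and within the Agrimol B group replicate 2 was lower than the other two. MAX rose 2.62-fold, from 17.5 ± 0.547 to 45.9 ± 13.8 FPKM, with a log2 difference of 1.29 (95% interval 0.74 to 1.84, adjusted p = 0.00428). An antisense gene absent from the table, AL139022.1, overlaps 4.15% of its exonic bases. The residual SD of MAX, 0.34 (log2), exceeded that of 95.2% of the 500 tested genes nearest to it in level. Without Agrimol B replicate 2 the log2 difference was 1.57, and when any 1 library was left out it was at least 1.14, with an adjusted p of at most 0.0168.

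MXD1 forms repressing dimers with MAX. The gene is on chromosome 2, 69897688 to 69942945, plus strand. It had the largest difference of the network. Control libraries read 1.38, 1.69 and 1.47 FPKM and Agrimol B libraries 8.81, 9.53 and 9.71 FPKM. The libraries within each group were close together, and every Agrimol B value was far above every control value. MXD1 rose 6.18-fold, from 1.51 ± 0.162 to 9.35 ± 0.479 FPKM (log2 difference 2.04, 95% interval 1.87 to 2.22, adjusted p = 1.78e-05). With a pseudocount of 0.1 in place of 1 the log2 difference was 2.55. In exons it shares 3.73% of its annotated bases with SNRNP27 on the same strand, a splicing factor gene whose difference did not pass the test (0.21, adjusted p = 0.0701). The 250 bases before its RefSeq start (GRCh38.p14, chr2:69914859-69915108, plus strand) are shown because this gene moved most, and hold no CACGTG. They lie inside the gene span given above, and the bases before the start of that span were not searched.
MXD1: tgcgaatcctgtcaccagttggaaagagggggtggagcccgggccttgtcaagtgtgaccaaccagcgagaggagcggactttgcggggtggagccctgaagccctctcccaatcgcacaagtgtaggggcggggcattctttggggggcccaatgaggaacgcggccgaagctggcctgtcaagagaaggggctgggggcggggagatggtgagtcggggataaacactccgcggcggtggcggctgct

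MNT is a MAX partner found in most cell types that opposes MYC. It is encoded on chromosome 17, 2384060 to 2401118, minus strand. Its values were 13.8, 13.0 and 12.6 FPKM in the controls and 20.4, 20.7 and 19.2 FPKM after Agrimol B. These groups did not overlap and both were tight. MNT rose 1.53-fold, from 13.1 ± 0.612 to 20.1 ± 0.808 FPKM (log2 difference 0.58, 95% interval 0.45 to 0.71, adjusted p = 0.000388). The antisense gene AC006435.1, absent from the table, overlaps 12.2% of its exonic bases. MGA, the large MAX partner that carries a T-box as well, was outside the 10 genes and rose from 11.0 ± 0.815 to 15.2 ± 0.174 FPKM (1.38-fold, adjusted p = 0.00191).

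MXD3, the MXD member tied to cycling cells and S phase, moved the other way. It is on chromosome 5, 177301461 to 177312757, minus strand. Control libraries read 7.45, 7.56 and 8.81 FPKM and Agrimol B libraries 4.07, 2.89 and 2.84 FPKM. Even the highest Agrimol B value was well below the lowest control value. MXD3 fell 2.43-fold, from 7.94 ± 0.753 to 3.27 ± 0.695 FPKM (log2 difference -1.08, 95% interval -1.39 to -0.76, adjusted p = 0.000952). Its exons share 18.0% of their bases with RAB24 on the same strand and 22.5% with PRELID1 on the opposite strand. RAB24, a small GTPase gene, rose 1.55-fold (adjusted p = 0.000636) and PRELID1 did not pass the test (adjusted p = 0.966). How the authors assigned reads in the shared bases is not given, and its part in the MXD3 value was not tested.

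The other MXD genes gave no call. MXD4, on chromosome 4, 2247432 to 2262294, minus strand, read 4.82, 4.53 and 5.36 FPKM in the controls and 5.13, 7.20 and 5.37 FPKM after Agrimol B. These groups overlapped, with replicate 2 the high one after Agrimol B, and the log2 difference was 0.21 (95% interval -0.09 to 0.52, adjusted p = 0.196). MXI1, on chromosome 10, 110207605 to 110287365, plus strand, read 9.43, 10.3 and 9.32 FPKM in the controls and 11.1, 7.05 and 9.61 FPKM after Agrimol B. Its Agrimol B values lay on both sides of the control values, and the log2 difference was -0.08 (95% interval -0.45 to 0.29, adjusted p = 0.692). The interval of MXI1 admits a modest change in either direction, and that of MXD4 admits a rise or a slight fall.

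Within the MXD family the make-up differed between the groups more than the summed level did. MXD1, MXD3, MXD4 and MXI1 together came to 24.1 ± 0.944 FPKM in the controls and 27.8 ± 1.25 FPKM after Agrimol B. MXD1 made up 6.29 ± 0.628% of that sum in control and 33.7 ± 3.05% with Agrimol B. MXD3 went the other way, from 33.0 ± 2.06% to 11.7 ± 1.97%. MXI1 held 40.4 ± 2.79% and 33.2 ± 6.07%, and MXD4 20.4 ± 1.41% and 21.4 ± 4.96%. These shares are ratios within a library, do not depend on scaling between libraries, and are given with no test.

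MLX is on chromosome 17, 42567068 to 42573239, plus strand. Its values were 22.1, 21.4 and 20.3 FPKM in the controls and 22.8, 24.3 and 26.5 FPKM after Agrimol B. The groups were adjacent without overlapping, and the difference of 0.19 (95% interval 0.03 to 0.36) missed the threshold by little (adjusted p = 0.0519). Without Agrimol B replicate 1 it was 0.24 and passed (adjusted p = 0.0321), and over all alternatives the adjusted p ran from 0.0321 to 0.168. Its exons share 18.1% of their bases with PSMC3IP on the opposite strand, which did not pass the test (0.18, adjusted p = 0.184). Of the partners of MLX, MLXIP read 12.9 ± 0.986 FPKM in control and 11.4 ± 0.282 FPKM with Agrimol B (log2 difference -0.16, adjusted p = 0.0754). MLXIPL read 1.62 ± 0.493 and 1.24 ± 0.462 FPKM (-0.24, adjusted p = 0.356). With median-ratio scaling or quantile normalization this set of MGA, MLXIP and MLXIPL held 1 rise and 1 fall in place of 1 rise and 0 falls. Under these settings 25.3% and 25.5% of all genes were higher and 26.1% and 25.4% lower.

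**Figure D2:**
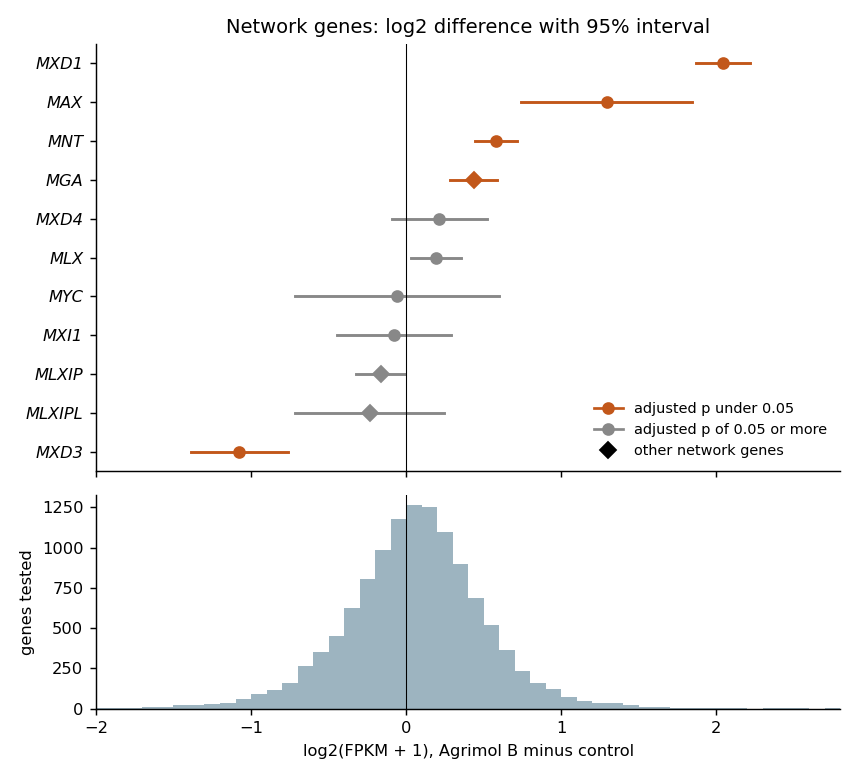
Top: log2(FPKM + 1) difference, Agrimol B minus control, with 95% interval for the 8 tested network genes (circles) and MGA, MLXIP and MLXIPL (diamonds). Bottom: the same difference for all 12143 tested genes, on the same horizontal axis, which is limited to -2 to 2.8; MXD1 stands at 2.04, and MYC has the widest interval of the genes plotted above it.

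The E-box that all these dimers bind was searched in RefSeq promoter windows, 250 bases before to 50 bases after each start, as CACGTG (its own reverse complement). A window was matched for 9 of the 10 genes, and MYC, which had no window, was not searched. MNT, MLX and MXD4 held 1 copy each, beside 7.26% of 35116 windows and 8.77% of the 27305 genes with a window. Among the 10079 tested genes with a promoter, 13.0% held CACGTG. The copy began 193 bases before the start of MNT, 50 before that of MLX and 238 before that of MXD4. The sequences around it follow, read in the direction of each gene with the E-box in capitals (GRCh38.p14, chr17:2401221-2401280, minus strand; chr17:42567023-42567082, plus strand; chr4:2262315-2262359, minus strand). A match describes the letters only and not binding.
MNT: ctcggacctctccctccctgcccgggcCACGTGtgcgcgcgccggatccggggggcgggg
MLX: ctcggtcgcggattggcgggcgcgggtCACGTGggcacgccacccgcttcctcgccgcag
MXD4: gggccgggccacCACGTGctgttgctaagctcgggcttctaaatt

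The MLX side of the network has a small set of textbook targets, induced with glucose through MLXIP or MLXIPL. Of 7 listed genes 6 were in the table and tested, and 5 rose (83.3%), 0 fell and 1 did not pass. Among all tested genes 30.6% were higher and 21.4% lower. The median log2 difference was 1.24 in the list, beside 0.07 over all genes. TXNIP, which binds thioredoxin and limits glucose uptake, rose from 3.30 ± 0.347 to 23.9 ± 0.621 FPKM (log2 difference 2.54, adjusted p = 1.16e-05). Its arrestin-domain relative ARRDC4 rose 5.92-fold to 7.67 ± 0.477 FPKM (log2 difference 1.92). The hexokinase HK2, the entry enzyme of glycolysis, rose 2.64-fold (log2 difference 1.32). The rises of KLF10 and ARRDC3 were smaller (1.15 and 0.28), and the glycolytic regulator PFKFB3 was at -0.15 (adjusted p = 0.477). In the main fit neither MLX, MLXIP nor MLXIPL had a called difference, and their part in the rises of these genes was not tested. The list is short, its genes have other regulators too, and TXNIP and HK2 were known to rise in these data when it was written.

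MLX dimers answer glucose through paired sites. The form searched, on either strand, was 2 copies of CACGNG in the same direction with 5 bases between them. No separate search was made for pairs with 1 copy inverted. This form was found in 20 of 35116 promoter windows (0.0570%), and TXNIP held it 88 bases before its start. The form was chosen with earlier results of these data known, so the TXNIP match is a description only. ARRDC4 and HK2 held the single CACGTG, HK2 in more than 1 copy, of which the one farthest from the start is shown. PFKFB3, the listed gene with no call, held a CACGTG as well, 108 bases before its start, so 3 of the 5 listed genes with a promoter held it. The stretches are shown because these 3 genes rose most in the list, with the motif in capitals (GRCh38.p14, chr1:145996630-145996689, minus strand; chr15:97960466-97960525, plus strand; chr2:74834949-74835008, plus strand).
TXNIP: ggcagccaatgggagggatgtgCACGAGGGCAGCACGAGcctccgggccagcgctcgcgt
ARRDC4: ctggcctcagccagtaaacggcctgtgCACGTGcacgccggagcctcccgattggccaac
HK2: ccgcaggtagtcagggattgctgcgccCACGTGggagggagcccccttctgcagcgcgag

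Genes that MYC is known to activate did not move in 1 direction. Of 60 listed targets, all tested and 1 of them under an older symbol, 18 rose, 18 fell and 24 did not pass, which is 30.0% higher and 30.0% lower beside 30.6% and 21.4% of all genes. Their median log2 difference was 0.004. The largest falls were those of TMEM97, a sterol-regulated membrane protein (35.7 ± 11.8 to 11.9 ± 3.92 FPKM, adjusted p = 0.0113), the nucleoside transporter SLC29A2 (22.4 ± 5.46 to 8.33 ± 1.64 FPKM) and the mitochondrial chaperonin HSPE1 (186 ± 11.7 to 90.9 ± 3.81 FPKM). Other named targets were chosen after their values were seen. The helicase subunits MCM4 and MCM5 fell 1.56-fold and 1.59-fold, the lactate dehydrogenase LDHA 1.58-fold and the mitochondrial chaperonin HSPD1 1.45-fold. The serine hydroxymethyltransferase SHMT2 rose 1.91-fold, and the ribosome assembly factors RRP12, PES1 and DKC1 rose 1.52-fold, 1.41-fold and 1.33-fold. The polyamine enzymes SRM and ODC1 rose 1.39-fold and 1.12-fold. The counts were 15 higher and 22 lower with median-ratio scaling, beside 25.3% and 26.1% of all genes.

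MYC and MAX bind many of these targets at E-boxes. A promoter was matched for 50 of the 60 targets and 25 of these (50.0%) held CACGTG, beside 13.0% of the 10079 tested genes with a promoter. It was present in 7 of 15 targets that fell and 11 of 21 that gave no call. Only 14 of the 18 that rose (77.8%) had a promoter, 7 of them with the E-box, under the minimum coverage set for such a check, so no comparison by direction is made. HSPE1 and HSPD1 are divergent neighbours that both fell and share 1 copy between their starts. The stretch is shown in the direction of HSPE1, 22 bases before its start (GRCh38.p14, chr2:197500330-197500378, plus strand).
HSPE1: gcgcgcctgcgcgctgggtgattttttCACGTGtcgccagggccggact

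**Figure D3:**
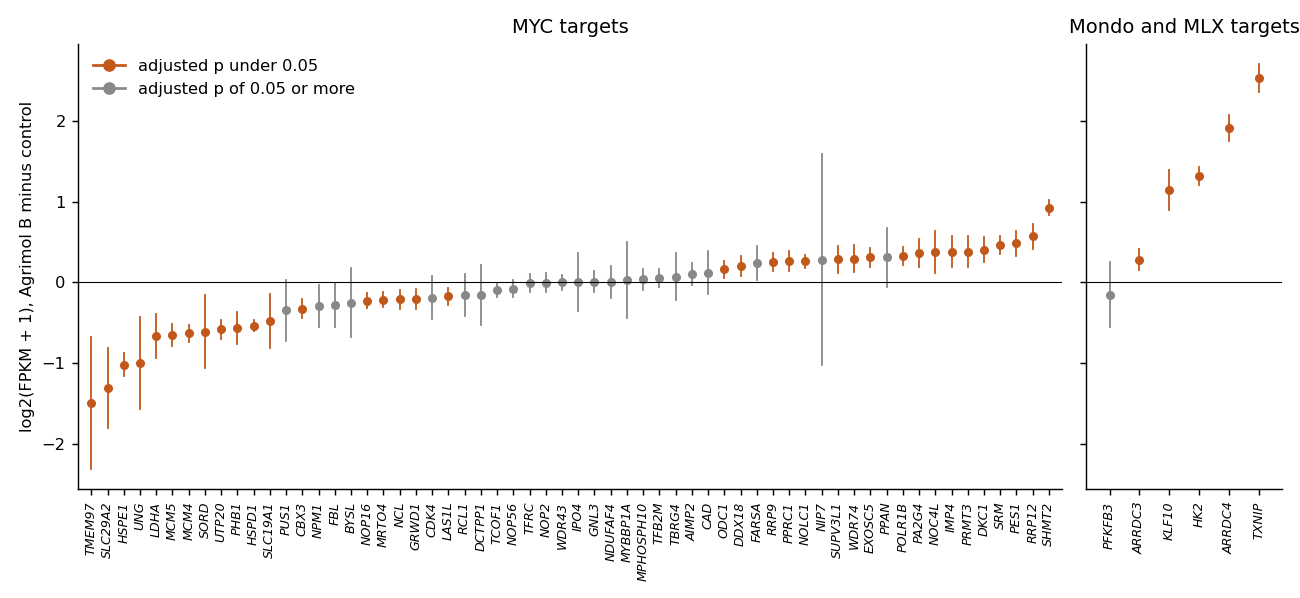
Log2(FPKM + 1) difference, Agrimol B minus control, with 95% interval for the 60 MYC targets (left) and the 6 tested Mondo and MLX targets (right), in order of size; coloured points passed the threshold. The left panel runs from -1.49 to 0.93 with 18 called genes on each side of 0, and 5 of the 6 genes on the right are called above 0.

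MYC itself was low and variable in this table. It lies on chromosome 8, 127735434 to 127741434, plus strand. Control libraries read 2.65, 2.05 and 0.979 FPKM and Agrimol B libraries 1.13, 2.40 and 1.70 FPKM. The lowest and the highest of the 6 values were both control libraries. The group means were 1.89 ± 0.847 and 1.74 ± 0.635 FPKM, and the log2 difference was -0.06 (95% interval -0.71 to 0.60, adjusted p = 0.874). That interval is wide enough to hold a change of about the size of MNT in either direction. In each library between 26.6% and 36.7% of the listed genes had a lower FPKM than MYC. Its residual SD of 0.40 (log2) exceeded that of 96.6% of the 500 tested genes nearest in level, whose median was 0.12.

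MYCN and MYCL, the family members best known from neural and lung tumours, were lower still. MYCN, on chromosome 2, 15940564 to 15947007, plus strand, read 0.177, 0.146 and 0.200 FPKM in control libraries. It was listed at 0 in Agrimol B replicate 1 and read 0.0406 and 0.0609 FPKM in replicates 2 and 3. All Agrimol B values were below all control values. With no filter on low values its log2 difference was -0.18 (adjusted p = 0.00724). MYCL, on chromosome 1, 39895426 to 39902256, minus strand, read 0.805, 0.808 and 0.930 FPKM in the controls and 0.904, 0.856 and 0.845 FPKM after Agrimol B. Its groups overlapped, and the difference with no filter was 0.02 (adjusted p = 0.802).

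The 3 tested genes outside the gene lists whose profile over the 6 libraries was most like that of MYC were RPUSD2 (Pearson r = 0.994 of log2(FPKM + 1)), RPP21 (0.975) and TAS2R14 (0.972). These are the highest values among many genes over 6 points that share their libraries, and are given as a description. Like MYC, all 3 were lower in control replicate 3 than in the other control libraries, and lower in Agrimol B replicate 1 than in the other Agrimol B libraries. That likeness comes with how they were picked and is no separate result.

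Set side by side per length, the network was dominated by MLX, MAX and MNT. In control libraries the order of mean FPKM was MLX, MAX, MNT, MXI1, MXD3, MXD4, MYC, MXD1, MYCL and MYCN, and only MYC and MXD1 overlapped among neighbours in that order. With Agrimol B it was MAX, MLX, MNT, MXD1, MXI1, MXD4, MXD3, MYC, MYCL and MYCN, with overlap of MXD1 with MXI1 and of MXI1 with MXD4. MXD1 thus stood below MYC in control and just after MNT with Agrimol B. The summed FPKM of the 10 genes was 78.9 ± 0.949 in control and 121 ± 13.8 with Agrimol B. MAX held 22.2 ± 0.877% of it in control and 37.4 ± 7.63% with Agrimol B. MYC held 2.39 ± 1.05% and 1.49 ± 0.720%, with overlapping ranges (1.25% to 3.32% and 0.871% to 2.28%). The ratio of MXD1 to MYC was 0.519 to 1.50 in control and 3.98 to 7.80 in Agrimol B libraries.

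**Figure D4:**
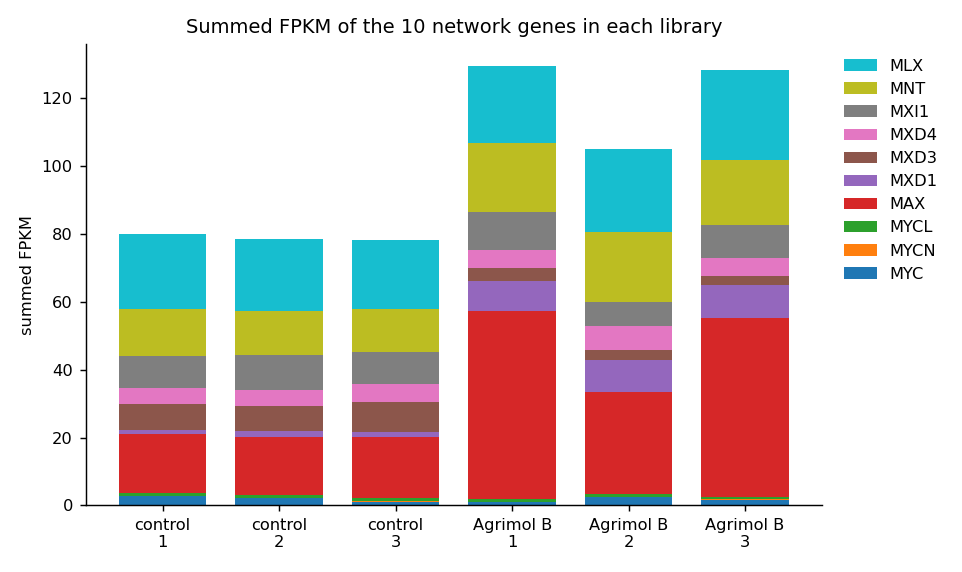
Stacked bars of FPKM of the 10 network genes in each of the 6 libraries (vertical axis, summed FPKM, from 0). The sums are 78.1 to 79.9 in control and 105 to 130 in Agrimol B libraries; the MAX and MXD1 segments are taller and the MXD3 segment is shorter after Agrimol B, and MAX is smallest among them in Agrimol B replicate 2.

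The corepressors that MXD and MNT proteins recruit moved in both directions. Of 10 tested genes of the SIN3 and NCOR complexes, 2 rose (20.0%) and 5 fell (50.0%), beside 30.6% and 21.4% of all genes (median -0.22, beside 0.07). The scaffolds split: SIN3B rose from 26.8 ± 1.29 to 34.3 ± 0.674 FPKM (log2 difference 0.35, adjusted p = 0.00176) and SIN3A fell from 23.5 ± 2.29 to 18.4 ± 1.64 FPKM (-0.34, adjusted p = 0.0246). The call of SIN3A was lost without Agrimol B replicate 1 or 3 or without control replicate 2 or 3 (adjusted p 0.0653 to 0.0708, and 0.0139 to 0.0708 over all alternatives). The histone-binding subunit RBBP4 fell 1.44-fold (adjusted p = 0.00431). Median-ratio scaling gave 1 rise and 5 falls, beside 25.3% and 26.1% of all genes. Without Agrimol B replicate 3 the counts were 1 and 3, beside 27.1% and 19.3%.

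Of 14 tested cofactors of MYC and MAX, such as histone acetyltransferase and chromatin remodelling subunits, 2 rose (14.3%) and 3 fell (21.4%), beside 30.6% and 21.4% of all genes (median -0.01, beside 0.07). The remodeller EP400 rose 1.36-fold (adjusted p = 0.00171) and its partner subunit ACTL6A fell 1.19-fold (adjusted p = 0.00336). The acetyltransferase KAT2A fell 1.28-fold (adjusted p = 0.0299), a call lost when any 1 Agrimol B library was left out (adjusted p 0.0502 to 0.0851, and 0.0141 to 0.0851 over all alternatives). With median-ratio scaling 1 rose and 5 fell, beside 25.3% and 26.1% of all genes. Without Agrimol B replicate 2 the counts were 2 and 1, beside 26.6% and 18.9%.

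Of 18 tested genes that control MYC transcription and mRNA, 6 were higher (33.3%) and 5 lower (27.8%), near the 30.6% and 21.4% of all genes, and the median of 0.07 equalled that of all genes. FUBP1, which binds a single-stranded element upstream of MYC, fell from 89.7 ± 0.998 to 55.0 ± 3.26 FPKM (log2 difference -0.70, adjusted p = 0.000154). The mRNA decay factor ZFP36L1 rose 2.04-fold (log2 difference 1.08, adjusted p = 0.0304), with control replicate 3 at 19.1 FPKM and the other control libraries at 7.99 and 7.82 FPKM. Leaving out any library but that one ended the call (adjusted p 0.0725 to 0.0866, and 0.000229 to 0.0866 over all alternatives). Without Agrimol B replicate 2 or 3 the counts were 4 higher and 5 lower. Of all genes, 26.6% or 27.1% were then higher and 18.9% or 19.3% lower.

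Among 21 tested genes for proteins that act on the stability of MYC protein, 6 rose (28.6%) and 8 fell (38.1%). Of all genes 30.6% were higher and 21.4% lower (median -0.13, beside 0.07). SKP2, a ubiquitin ligase subunit of S phase, fell 2.57-fold (78.0 ± 13.2 against 30.3 ± 1.27 FPKM, adjusted p = 0.000410). The mitotic kinase AURKA, which can protect MYC proteins from degradation, fell 2.16-fold (adjusted p = 0.000955). The ubiquitin ligase TRIM32 rose 2.98-fold from 2.14 ± 0.181 to 6.37 ± 1.63 FPKM (adjusted p = 0.00184). FBXW7, the main ligase subunit for phosphorylated MYC, was at -0.13 and gave no call. RNA levels do not measure the MYC protein.

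Genes that MYC represses, largely with ZBTB17 (MIZ1), include cell cycle inhibitors and differentiation genes. Of 10 listed 9 were tested, 3 rose (33.3%) and 2 fell (22.2%), close to the 30.6% and 21.4% of all genes (median -0.09, beside 0.07). The stress sensor GADD45A rose 3.33-fold from 39.8 ± 3.75 to 133 ± 17.9 FPKM (adjusted p = 0.000111). NDRG2 fell from 7.51 ± 1.30 to 3.65 ± 0.989 FPKM (adjusted p = 0.00842), and the growth arrest gene GAS1 fell 1.59-fold. With median-ratio scaling the counts were 3 and 3, beside 25.3% and 26.1% of all genes. With quantile normalization they were 2 and 3, beside 25.5% and 25.4%.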

How the data were processed

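RNA of 6 libraries was sequenced after stranded mRNA library preparation, per the labels' protocols. The authors deposited 1 table of FPKM values by gene symbol. FastQC, cutadapt, Trimmomatic, HISAT and hg38 are listed, per the submitters' processing notes, without versions or roles. For the FPKM step, program, annotation and strand setting: not given in the sources used here. Control columns were matched to samples by number and by the same letters as the description, which come in reversed order.

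Values were analysed as log2(FPKM + 1) for 12143 genes averaging 1 FPKM or more. The model was limma 3.58.1 in R 4.3.3 with a group term and variance trend. Two-sided p-values were adjusted by the Benjamini-Hochberg method over these genes, with a threshold of 0.05. It was tested on simulated data. Alternatives were another pseudocount (0.1), no filter, a filter of 5 FPKM, median-ratio scaling, quantile normalization, no variance trend, a replicate block and leaving out each library. Coordinates and exon overlaps came from GENCODE release 29 (GRCh38) and promoters from RefSeq (GRCh38.p14).

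The members, gene lists, motifs and tests were chosen with earlier results of these data known. Beside the members, the rule named up to 3 called genes of each list with the largest differences and non-overlapping groups, of which 1 is not reported here, and the 3 genes most correlated with MYC; KLF10, ARRDC3, PFKFB3, FBXW7, overlapping neighbours and single markers were named after their values were seen. Python 3.11.15, pandas 2.3.3 and matplotlib 3.10.9 were used.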

Additional observations from a re-analysis of the deposited data

How the results depend on the processing

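MAX, MXD1, MXD3 and MNT kept their direction and their call in all 13 alternatives run, and the number of network genes called was 4 or 5. The fifth was MYCN with no filter and MLX without Agrimol B replicate 1. Of the targets of MYC, 16 to 22 were lower and 15 to 18 higher. Over the same settings 17.8% to 26.1% of all tested genes were lower and 24.2% to 31.4% higher. MYC and MXI1, which were never called, changed sign when 1 library was left out: MYC ran from -0.31 to 0.13 and MXI1 from -0.21 to 0.0866. The same held for RPUSD2 (-0.16 to 0.0268), RPP21 (-0.11 to 0.0734) and TAS2R14 (-0.17 to 0.0657), which were picked for their likeness to MYC. KAT2A (log2 difference -0.39 to -0.23), SIN3A (-0.41 to -0.27) and ZFP36L1 (0.88 to 1.48) kept their direction but lost their call without any 1 of several libraries. With 1 library left out, 5530 to 5738 of the 12143 tested genes were called, beside 6311 in the main fit. The difference in the share of network FPKM held by MYC, -0.90 percentage points, ran from -1.47 to -0.44 when 1 library was left out. The summed FPKM that this share is taken from was 78.9 in control and 121 with Agrimol B, while MYC read 1.89 and 1.74 FPKM. The ranges of the share overlapped between the groups, so this is not read as a change of MYC. The replicate numbers showed no pairing (correlation of deviations -0.01 to 0.04 for equal numbers). With a replicate block the 4 network calls stood (MAX adjusted p = 0.00943). In that fit 17 targets of MYC were lower and 15 higher, beside 19.6% and 27.9% of all tested genes. The read depth is unknown, and the interval of MYC admits changes in either direction.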
